A study of Homo sapiens with 9 samples.

Results

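The genes described here are the translation factors and small nucleolar RNA (snoRNA) host genes of the terminal oligopyrimidine (TOP) class, without the ribosomal protein genes. They are 39 named genes of the 60671 listed in the count files. They comprise 5 elongation factor genes, 15 genes of initiation (14 factors and the poly(A)-binding protein gene PABPC1), 8 other protein-coding genes and 11 snoRNA host genes, and were found by symbol. A filter on low counts kept 13390 genes, of which 38 were members. EEF1G was the member left out, since it had no count in any library.

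The RNA was taken from untreated N/TERT cells, human keratinocytes of the epidermis that telomerase keeps dividing. There were 3 SGPL1 KO libraries, from cells in which SGPL1 had been knocked out by CRISPR, 3 SGPL1 OE libraries, from cells that overexpress SGPL1, and 3 Control libraries, from cells labelled WT. SGPL1 encodes sphingosine-1-phosphate lyase, which breaks down sphingosine-1-phosphate. The submitters call the libraries biological replicates. How many clones stand behind a group, and which promoter drives the overexpression, is not given in the sources at hand, so p-values measure only the spread between these libraries.

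TOP mRNAs begin with a cytosine that is followed by a run of pyrimidines, and most of them encode the machinery of translation itself. The kinase complex mTORC1 and the RNA-binding protein LARP1 act on this start: when mTORC1 is inactive, LARP1 holds TOP mRNAs out of translation and protects them from decay. Many snoRNA host genes carry the same kind of start; their introns release snoRNAs that guide ribosomal RNA modification, and the spliced remainder of several of them is degraded when it is translated. Counts of polyadenylated RNA, as used here, measure the amount of each transcript and not its translation.

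The starts below show pyrimidine tracts of the kind that gives the class its name. Members that rose in KO cells (EEF1A1, TPT1, RACK1, EIF3F) are given first. EEF2, whose change did not pass the test, and members that fell (EIF4G1, SNHG12) follow. In EIF4G1 the tract begins 3 bases before the annotated start 2, and its starts 1 and 3 have none. GAS5 and SNHG29 rose and have no such tract within 5 bases of the start. In SNHG29 a run of C and T begins 10 bases before the start, outside the bases searched. Each line gives 10 bases before and 20 bases from the start that RefSeq annotates on GRCh38.p14, 5′ to 3′ on the transcribed strand. Capitals mark the tract that was searched for, a C no more than 5 bases from the start followed by at least 4 bases that are C or T.
EEF1A1, chr6:73521013-73521042, minus strand: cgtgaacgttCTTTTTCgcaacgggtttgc
TPT1, chr13:45341164-45341193, minus strand: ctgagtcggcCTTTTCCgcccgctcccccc
RACK1, chr5:181243887-181243916, minus strand: gcttttctctCTCTCTTTCactgcaaggcg
EIF3F, chr11:7987327-7987356, plus strand: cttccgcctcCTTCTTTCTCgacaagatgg
EEF2, chr19:3985444-3985473, minus strand: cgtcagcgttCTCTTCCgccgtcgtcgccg
EIF4G1, start 2 of 3, chr3:184315154-184315183, plus strand: gggccgaCCCTCacttgcctgaaaccggct
SNHG12, chr1:28581854-28581883, minus strand: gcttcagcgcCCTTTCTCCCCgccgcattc
GAS5, chr1:173869026-173869055, minus strand: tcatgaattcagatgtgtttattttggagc
SNHG29, chr17:16438977-16439006, plus strand: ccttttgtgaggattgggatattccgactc

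RefSeq starts were at hand for 29 members, and 24 of them (82.8%) had at least 1 start with such a tract. In 18 members (62.1%) the tract began exactly at the start. The search used the transcribed strand only. Among all 27305 genes of the same table, 25.2% had a tract within 5 bases and 5.14% had one exactly at a start. Among the 10140 of these genes that were tested here, the shares were 29.4% and 7.43%. The members were chosen as genes of the TOP class, so a higher share among them was built into the list. The tracts of the members were 5 to 16 bases long, with a median of 7, and the longest was that of EEF1B2. The 5 members with a RefSeq start and no tract were EEF1G, EIF4A1, GAS5, SNHG1 and SNHG29. For GAS5 the RefSeq start lies upstream of the end of the gene in the count files (173868882 on the minus strand), so the window shown is not the start of the exons that were counted. No RefSeq start was at hand for PABPC1, EIF3G, EIF3E, EIF3H, EIF3L, EEF1D, HNRNPA1, IMPDH2, SNHG6 and SNHG15.

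The libraries held 6317564 to 9410555 counts in KO, 8773822 to 13330479 in OE and 8730711 to 9251703 in Control cells, and 3 counts corresponded to 0.219 to 0.507 CPM (counts scaled to library size, with TMM factors). SGPL1 itself had 59.6 ± 1.75 CPM in KO, 1055 ± 110.1 in OE and 92.5 ± 7.55 in Control cells (SD, n = 3 each), all libraries in the direction of their labels. These counts cover all exons, and cannot show whether the remaining KO transcripts carry the edit. OE replicate 3 was the deepest library. It differed from the other OE libraries by a chi-square per degree of freedom of 11.7 and 10.9, against 4.46 between those others. That value is computed on raw counts and grows with depth. The correlations of log2 CPM with replicate 3 were 0.982 and 0.983, against 0.984 between the other OE libraries. OE replicate 3 carried the highest OE value of 24 of the 27 members that were higher in KO than in Control cells. The share of all tested genes with their highest OE value in that library was not computed. All 10 keratinocyte markers were detected, led by the basal keratins KRT5 and KRT14. In the order KO, OE and Control, their summed level ranged from 15435 to 17184, from 25428 to 26715 and from 25171 to 25579 CPM. In KO against Control cells 8 of 10 were lower and 1 was higher, where 25.9% of all tested genes were lower. With the trend over exon length and GC content removed, as described below, 6 were lower and 2 higher, where 20.7% of all tested genes were lower. Of 8 fibroblast markers COL3A1, LUM and POSTN were at 0 in every library, and COL1A1, COL1A2, DCN, PDGFRA and PDGFRB had counts. Of 7 melanocyte markers TYR, DCT and SOX10 were at 0, and PMEL, MLANA, TYRP1 and MITF had counts. Of 9 blood, endothelial and immune markers PTPRC, CD3E, CD68, HBB and PECAM1 were at 0, and CD79A, CD14, CDH5 and VWF had counts. The filter on low counts kept 1, 2 and 1 genes of these lists. The summed levels of those 3 lists ranged from 8.46 to 15.1, 69.2 to 76.5 and 6.17 to 9.13 CPM in KO, from 24.5 to 28.4, 60.02 to 71.4 and 1.55 to 2.19 CPM in OE and from 21.5 to 28.3, 89.7 to 101.2 and 3.90 to 6.22 CPM in Control libraries. Fewer cells of a kind and less RNA per cell cannot be told apart in bulk RNA, and the part of the lower keratinocyte markers in the results was not tested.

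The members took up a larger share of the RNA in KO cells. In the order of replicates they held 4.74%, 4.91% and 4.74% of all counts in KO libraries, 2.83%, 2.76% and 2.93% in OE libraries and 2.93%, 2.89% and 2.87% in Control libraries. The mean shares were 4.80% ± 0.0998 in KO, 2.84% ± 0.083 in OE and 2.89% ± 0.0323 in Control cells (SD, n = 3 each), and the KO libraries did not overlap the others. The KO share exceeded the Control share by 1.90 percentage points, 1.66-fold, with a two-sided exact permutation p of 0.1, the smallest that 3 against 3 libraries allow. EEF1A1 alone supplied 1.38 of those points, with 2.38% ± 0.149 of counts in KO against 0.999% ± 0.00397 in Control cells. Without EEF1A1 the other 38 members held 2.42% ± 0.0756 in KO and 1.89% ± 0.0332 in Control cells (exact permutation p = 0.1, again the smallest possible). By class, the host genes showed the largest ratio, 2.14-fold (0.129% ± 0.00449 in KO against 0.0606% ± 0.00283 in Control cells). The initiation genes showed the smallest, 1.12-fold (0.833% ± 0.0286 against 0.746% ± 0.00287). The host gene ratio rests mainly on SNHG29, which averaged 812 CPM in KO and 266 CPM in Control cells. The next most abundant host gene, GAS5, averaged 178 and 69.2 CPM. The OE share differed from the Control share by less than the spread between the libraries (exact permutation p = 0.4).

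**Figure D1:**
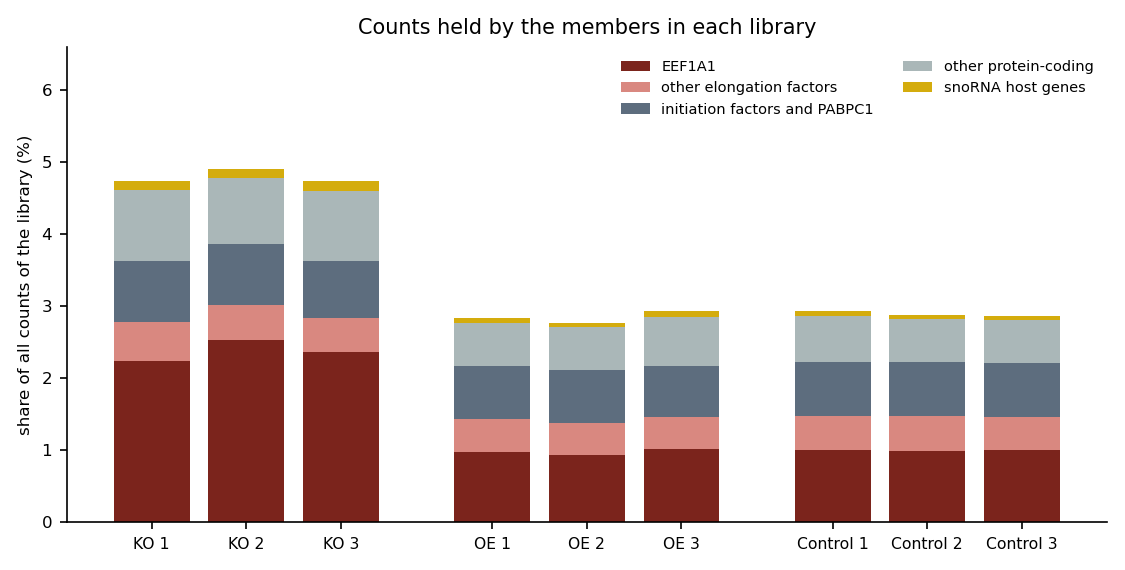
Share of all counts of a library (%, stacked bars) held by EEF1A1, the other elongation factors, the initiation genes, the other protein-coding members and the snoRNA host genes, for each KO, OE and Control library. The KO bars reach 4.74% to 4.91%, while all OE and Control bars stay at or below 2.93%, and EEF1A1 makes up the largest part of the difference.

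In KO against Control cells 27 of the 38 tested members were higher, 3 were lower and 8 did not pass the test (edgeR quasi-likelihood test, Benjamini-Hochberg adjusted p under 0.05 over all 13390 genes). Of all tested genes 26% were higher and 25.9% lower in the same comparison, 51.9% in all, against 71.1% higher and 7.89% lower among the members. The members had a median log2 fold change of 0.61, and all tested genes one of -0.0047. The KO libraries lay above every Control library for 28 members and below every one for 4, where 30% and 29.4% of all genes did so. Fold changes of all genes followed exon length in KO cells. Each was also fitted with the trend of every library over exon length and GC content removed. That length covers all annotated exons of a gene, and the GC content is that of its longest transcript. Either can differ from the mRNA that was expressed, so the trend-removed values stand beside the others as an alternative. With the trend removed 30 members were higher and 4 lower, against 24.8% and 20.7% of all genes, 45.6% in all, and the members' median was 0.53.

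**Figure D2:**
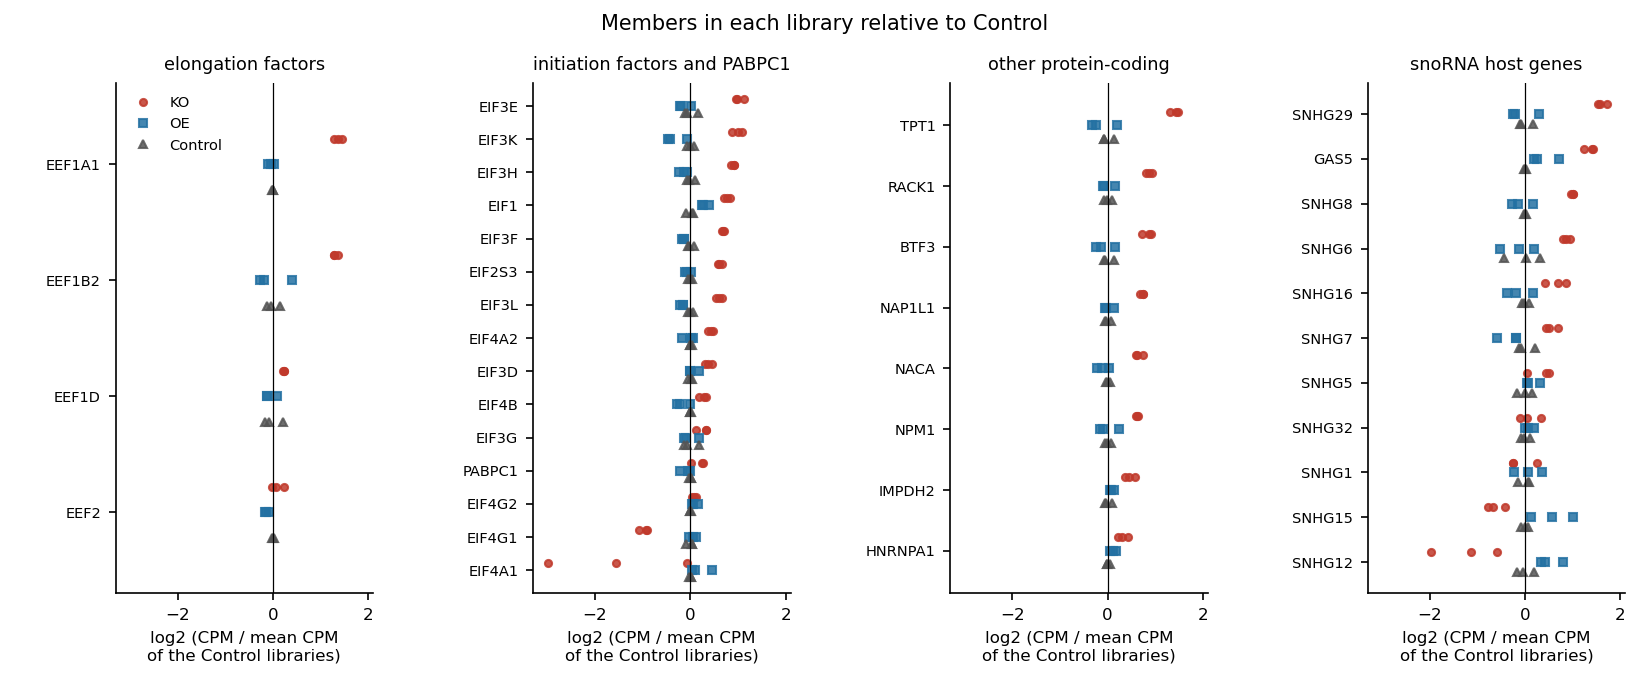
Each tested member in each library as log2 of its CPM over the mean CPM of the 3 Control libraries, with KO as circles, OE as squares and Control as triangles, in 4 classes ordered by the KO fold change. Most KO circles stand right of zero, while EIF4G1, SNHG12 and SNHG15 stand left of it, and the OE squares scatter around the Control triangles.

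Of the 4 tested elongation factor genes EEF1A1 and EEF1B2 were higher in KO than in Control cells and EEF1D and EEF2 did not pass. With the trend removed all 4 were higher. Of all tested genes 26% were higher as counted and 24.8% with the trend removed. EEF1A1, which brings aminoacylated transfer RNA to the ribosome and is the most abundant member, had 23611, 26709 and 25299 CPM in KO, 9537, 9075 and 9908 CPM in OE and 9808, 9697 and 9838 CPM in Control libraries. Every KO library was more than 2-fold above every other library, and OE and Control libraries overlapped. EEF1A1 was 2.58-fold higher in KO than in Control cells, with a fitted log2 fold change of 1.37 ± 0.07 (SE; adjusted p = 2.16e-12) and 1.35 with the trend removed. EEF1A1 (ENSG00000156508; GRCh38 chr6:73515750-73523797, minus strand) has 49 listed pseudogene copies. Of these 14 had counts, which came to 3.70% of the EEF1A1 counts in KO, 3.72% in OE and 3.62% in Control cells. The counting command sets no option for multi-mapping reads. These values therefore cannot show how reads shared by near-identical copies were assigned. Leaving EEF1A1 out of the library sizes changed no member's call.

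EEF1B2, a subunit of the exchange factor that reloads EEF1A1 with GTP, moved with it. It had 598, 604 and 636 CPM in KO, 217, 206 and 328 CPM in OE and 274, 226 and 241.01 CPM in Control libraries. OE replicate 3 was above the Control libraries and the other OE libraries below them, and all KO libraries were above both groups. EEF1B2 was 2.48-fold higher in KO than in Control cells, at a log2 fold change of 1.31 ± 0.12 (adjusted p = 6.15e-09), and 0.95 with the trend removed. EEF1D, another subunit of the same exchange factor, averaged 84.5 ± 1.01 CPM in KO and 72.5 ± 10.2 CPM in Control cells. Its log2 fold change of 0.22 ± 0.10 did not pass (adjusted p = 0.0762), but with the trend removed it was 0.85 (adjusted p = 7.31e-07). EEF1D is long for a member, and 34.0% of its exon bases are shared with other genes, none on its own strand. EEF1G, a further subunit, had 0 counts in all 9 libraries, which allows at most 3 counts in a library, or 0.507 CPM in the shallowest one, for counting error alone. Of its exon bases 99.7% lie within exons of another gene of the annotation on the same strand, ENSG00000255508, which had 74 counts over the 9 libraries, and the counting command sets no option to count reads that overlap more than 1 gene. The expression of EEF1G cannot be read from these counts.

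EEF2, which drives translocation of the ribosome, had 5056, 4511 and 4273 CPM in KO, 4056, 3923 and 3851 CPM in OE and 4311, 4349 and 4275 CPM in Control libraries. The KO and Control ranges overlapped, and the OE libraries lay below both. Its log2 fold change in KO against Control cells was 0.10 ± 0.08 (adjusted p = 0.292), and 0.28 (adjusted p = 0.00144) with the trend removed. Both EEF1A1 and EEF2 have a tract exactly at the annotated start. Per kilobase of exon, EEF1A1 had a level of 4605 CPM in KO and 1787 CPM in Control cells, and EEF2 one of 1147 CPM in KO and 1072 CPM in Control cells. These genes had the highest levels per kilobase among the members in all 3 groups, followed by PABPC1 with 612 CPM in KO, 508 CPM in OE and 541 CPM in Control cells.

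Among the initiation genes 11 of 15 were higher, 1 was lower and 3 did not pass in KO against Control cells. Of all tested genes 26% were higher and 25.9% lower. The 7 members that encode subunits of eIF3, the scaffold that holds the initiation factors on the small ribosomal subunit, were all higher, with a median log2 fold change of 0.69. EIF3E had 602, 599 and 672 CPM in KO, 268, 264 and 309 CPM in OE and 344, 283 and 292 CPM in Control libraries, a 2.04-fold higher level in KO than in Control cells (adjusted p = 2.12e-09). EIF3K had 335, 366 and 388 CPM in KO, 133, 135 and 175 CPM in OE and 182, 174 and 193 CPM in Control libraries, at a log2 fold change of 0.99 ± 0.10 (adjusted p = 1.14e-08). For both genes the KO libraries lay above all others. EIF3H (0.89), EIF3F (0.69), EIF3L (0.60) and EIF3D (0.38) were also higher on the log2 scale, each without overlap of KO and Control libraries. EIF3G was higher by 0.26 ± 0.10 (adjusted p = 0.0334), with overlapping libraries, and it no longer passed without Control replicate 2 (adjusted p = 0.132), Control replicate 3 (0.171), KO replicate 1 (0.121) or KO replicate 3 (0.0981). EIF3F has pseudogene counts of 9.17% of its own in KO, 8.41% in OE and 8.35% in Control cells, and 51.8% of the exon bases of EIF3L are shared with other genes.

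The eIF3 subunits outside the membership divided. EIF3M and EIF3I were higher in KO than in Control cells by 0.84 each on the log2 scale (adjusted p = 4.63e-08 and 1.60e-07). EIF3A and EIF3B, the large core subunits, were lower by log2 fold changes of -0.57 (adjusted p = 5.00e-06) and -0.46 (adjusted p = 3.00e-05). With the trend removed EIF3A stayed lower (-0.55) and EIF3B did not (0.04, adjusted p = 0.658). EIF3C (-0.38) and EIF3J (0.04) did not pass. Of all 13 subunits 9 were thus higher, 2 lower and 2 not past the test, both as counted and with the trend removed. With the trend removed EIF3J in place of EIF3B was among the lower ones (-0.39, adjusted p = 0.000963). Over all tested genes 26% were higher and 25.9% lower as counted, and 24.8% and 20.7% with the trend removed.

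EIF1, which keeps the scanning ribosome from starting at the wrong codon, had 512, 492 and 473 CPM in KO, 341, 345 and 376 CPM in OE and 298, 295 and 269.8 CPM in Control libraries. The 3 groups did not overlap, with KO highest and Control lowest. Its log2 fold change in KO against Control cells was 0.77 ± 0.08 (adjusted p = 1.73e-08). EIF2S3, the subunit of eIF2 that binds GTP, was higher by 0.62 ± 0.07 (adjusted p = 2.38e-07), or 0.37 with the trend removed. EIF4A2, an RNA helicase, and EIF4B, which assists that helicase, were higher by 0.43 (adjusted p = 6.69e-05) and 0.27 (adjusted p = 0.00732) on the log2 scale, each without overlap of KO and Control libraries. PABPC1, which binds the poly(A) tail, had 2639, 2698 and 2281 CPM in KO, 2243, 2155 and 1919 CPM in OE and 2187, 2264 and 2277 CPM in Control libraries. All KO values exceeded all Control values, and the log2 fold change of 0.18 ± 0.08 did not pass (adjusted p = 0.0688). EIF4G2, a relative of EIF4G1 that does not bind the cap-binding protein, had a log2 fold change of 0.08 ± 0.07 (adjusted p = 0.379).

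EIF4G1, the scaffold that joins the cap-binding protein to the helicase and to eIF3, moved against its class. It had 505, 495 and 452 CPM in KO, 989, 1035 and 934 CPM in OE and 891, 979 and 978 CPM in Control libraries. The KO libraries were below all others by a wide margin, and OE and Control libraries overlapped. EIF4G1 was 1.96-fold lower in KO than in Control cells, at a log2 fold change of -0.97 ± 0.08 (adjusted p = 7.35e-10). The fall was smaller, -0.46, once the trend was removed (adjusted p = 2.16e-06). Its relative EIF4G3 was lower as well (-0.88 ± 0.09, adjusted p = 2.44e-08; -0.62 with the trend removed), as was EIF5B, which joins the ribosomal subunits (-0.88 ± 0.08, adjusted p = 2.90e-09; -0.90).

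EIF4A1, the main helicase of the cap-binding complex, was barely counted. It had 5, 2 and 10 counts in KO, 22, 19 and 25 in OE and 16, 17 and 16 in Control libraries, and a log2 fold change in KO against Control cells of -1.20 ± 0.58 (adjusted p = 0.086). Annotated pseudogene copies of EIF4A1 held 896 counts in KO, 842 in OE and 573 in Control cells, more than 10 times those of EIF4A1 itself (17, 66 and 49 counts). Of its exon bases 47.4% overlap other genes on the same strand. Its direction is therefore uncertain.

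**Figure D3:**
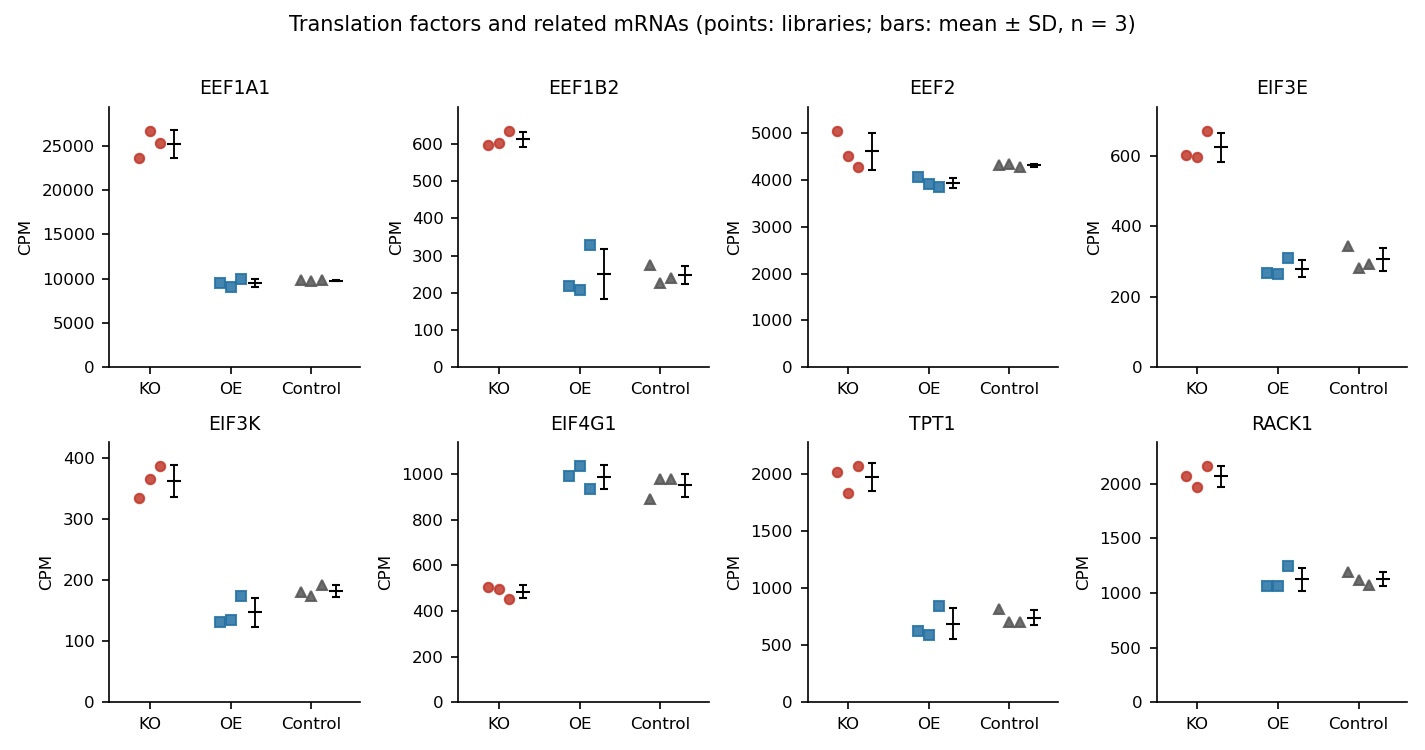
CPM of 8 translation factors and related members in each KO, OE and Control library (points), with the mean ± SD (n = 3) beside them and every axis starting at 0. EEF1A1, EEF1B2, EIF3E, EIF3K, TPT1 and RACK1 are higher in all KO libraries, EIF4G1 is lower in them, and EEF2 overlaps Control.

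The 8 other protein-coding members were higher in KO than in Control cells without exception, and no KO library overlapped a Control library for any of them. Of all tested genes 26% were higher, and 30% had every KO library above every Control library. TPT1, the translationally controlled tumour protein, had 2009, 1831 and 2067 CPM in KO, 627, 589.9 and 844 CPM in OE and 815, 703 and 703 CPM in Control libraries. KO values were more than 2-fold above all others, and OE values surrounded the Control values. TPT1 was 2.66-fold higher in KO than in Control cells (log2 fold change 1.41 ± 0.11, adjusted p = 2.47e-10; 1.46 with the trend removed). RACK1, a scaffold on the small ribosomal subunit, had 2067, 1972 and 2163 CPM in KO, 1068, 1062 and 1249 CPM in OE and 1197, 1115 and 1073 CPM in Control libraries. It was 1.83-fold higher (0.87 ± 0.08, adjusted p = 6.72e-09; 1.07 with the trend removed).

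BTF3 and NACA, the subunits of the complex that meets nascent chains at the ribosome, were higher in KO than in Control cells by 0.83 ± 0.09 (adjusted p = 1.25e-07) and 0.65 ± 0.08 (adjusted p = 3.91e-07) on the log2 scale. BTF3 had 831, 753 and 857 CPM in KO against 499, 433 and 437 CPM in Control libraries, and NACA 570.0, 515 and 528 CPM against 356, 338 and 336 CPM. The trend removal moved them in opposite directions, to 0.51 for BTF3 and 1.17 for NACA. The histone chaperone NAP1L1 (0.72; 1.02 with the trend removed) and the nucleolar chaperone NPM1 (0.62; 0.34) were higher by similar amounts as counted. IMPDH2, the rate-limiting enzyme of guanine nucleotide synthesis (0.47; 0.31), and the splicing regulator HNRNPA1 (0.32; 0.20) changed least. HNRNPA1 was the member of this class with most pseudogene copies, 74, of which 22 had counts; they came to 3.27% of its counts in KO and 3.29% in Control cells.

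The snoRNA host genes did not all move the same way. In KO against Control cells 6 of 11 were higher (54.5%), 2 were lower (18.2%) and 3 did not pass. Of all tested genes 26% were higher and 25.9% lower. With the trend removed the numbers were 7, 3 and 1, against 24.8% higher and 20.7% lower among all tested genes. SNHG29, the most abundant host gene here, had 764, 795 and 878 CPM in KO, 229, 223 and 326 CPM in OE and 298, 249 and 252 CPM in Control libraries. The KO libraries stood more than 2-fold above all others. SNHG29 was 3.05-fold higher in KO than in Control cells (log2 fold change 1.61 ± 0.11, adjusted p = 9.86e-11; 1.74 with the trend removed), the largest rise of any tested member. GAS5, whose introns carry many box C/D snoRNAs, had 184, 164 and 186 CPM in KO, 82.9, 78.9 and 114 CPM in OE and 68.5, 68.8 and 70.3 CPM in Control libraries. The 3 groups did not overlap, with KO highest and Control lowest. Its log2 fold change in KO against Control cells was 1.36 ± 0.11 (adjusted p = 8.00e-10; 1.20 with the trend removed).

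SNHG8 had 108, 107 and 106 CPM in KO, 48.8, 44.8 and 60.3 CPM in OE and 52.9, 54.7 and 53.9 CPM in Control libraries, a log2 fold change in KO against Control cells of 0.99 ± 0.10 (adjusted p = 3.02e-08). KO values were tightly grouped and clear of the rest. Of its exon bases 39.6% overlap other genes, mostly PRSS12 on the opposite strand, and the counting command sets no strand. SNHG6 (0.86 ± 0.17, adjusted p = 0.000152), SNHG16 (0.67 ± 0.12, adjusted p = 8.63e-05) and SNHG7 (0.55 ± 0.12, adjusted p = 0.000435) were higher without overlap of KO and Control libraries. The trend removal lowered the value of SNHG6 to 0.39 (adjusted p = 0.0341) and raised that of SNHG7 to 0.96. For each of these 3 genes 33.4% to 36.4% of the exon bases are shared with other genes.

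SNHG12 and SNHG15 fell. SNHG12 had 1.69, 3.03 and 4.40 CPM in KO, 8.30, 8.87 and 11.5 CPM in OE and 5.89, 7.48 and 6.40 CPM in Control libraries, from 14, 27 and 26 counts in KO. The groups did not overlap, with KO lowest and OE highest. SNHG12 was 2.17-fold lower in KO than in Control cells (log2 fold change -1.16 ± 0.30, adjusted p = 0.00224; -1.03 with the trend removed). SNHG15 had 4.82, 4.49 and 5.75 CPM in KO, 8.41, 11.5 and 15.5 CPM in OE and 7.75, 8.11 and 7.30 CPM in Control libraries, in the same order of groups. Its log2 fold change of -0.63 ± 0.25 (adjusted p = 0.0371) kept its sign but lost its call with limma-voom (adjusted p = 0.0713) and without Control replicate 1 (0.0676), Control replicate 2 (0.0886), Control replicate 3 (0.054), KO replicate 1 (0.0861) or KO replicate 2 (0.112).

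SNHG1, SNHG5 and SNHG32 did not pass, with log2 fold changes of -0.08 ± 0.16, 0.33 ± 0.17 and 0.09 ± 0.15 and adjusted p-values of 0.685, 0.115 and 0.639. Their KO and Control libraries overlapped. SNHG1 had 25.3, 25.3 and 35.8 CPM in KO against 31.5, 27.3 and 31.9 CPM in Control libraries. With the trend removed SNHG5 was higher (0.76, adjusted p = 0.00112) and SNHG1 lower (-0.35, adjusted p = 0.0486), while SNHG32 changed sign (-0.27, adjusted p = 0.154). SNHG5, SNHG32, SNHG12 and SNHG15 were the 4 host genes with a mean under 20 CPM in Control cells.

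**Figure D4:**
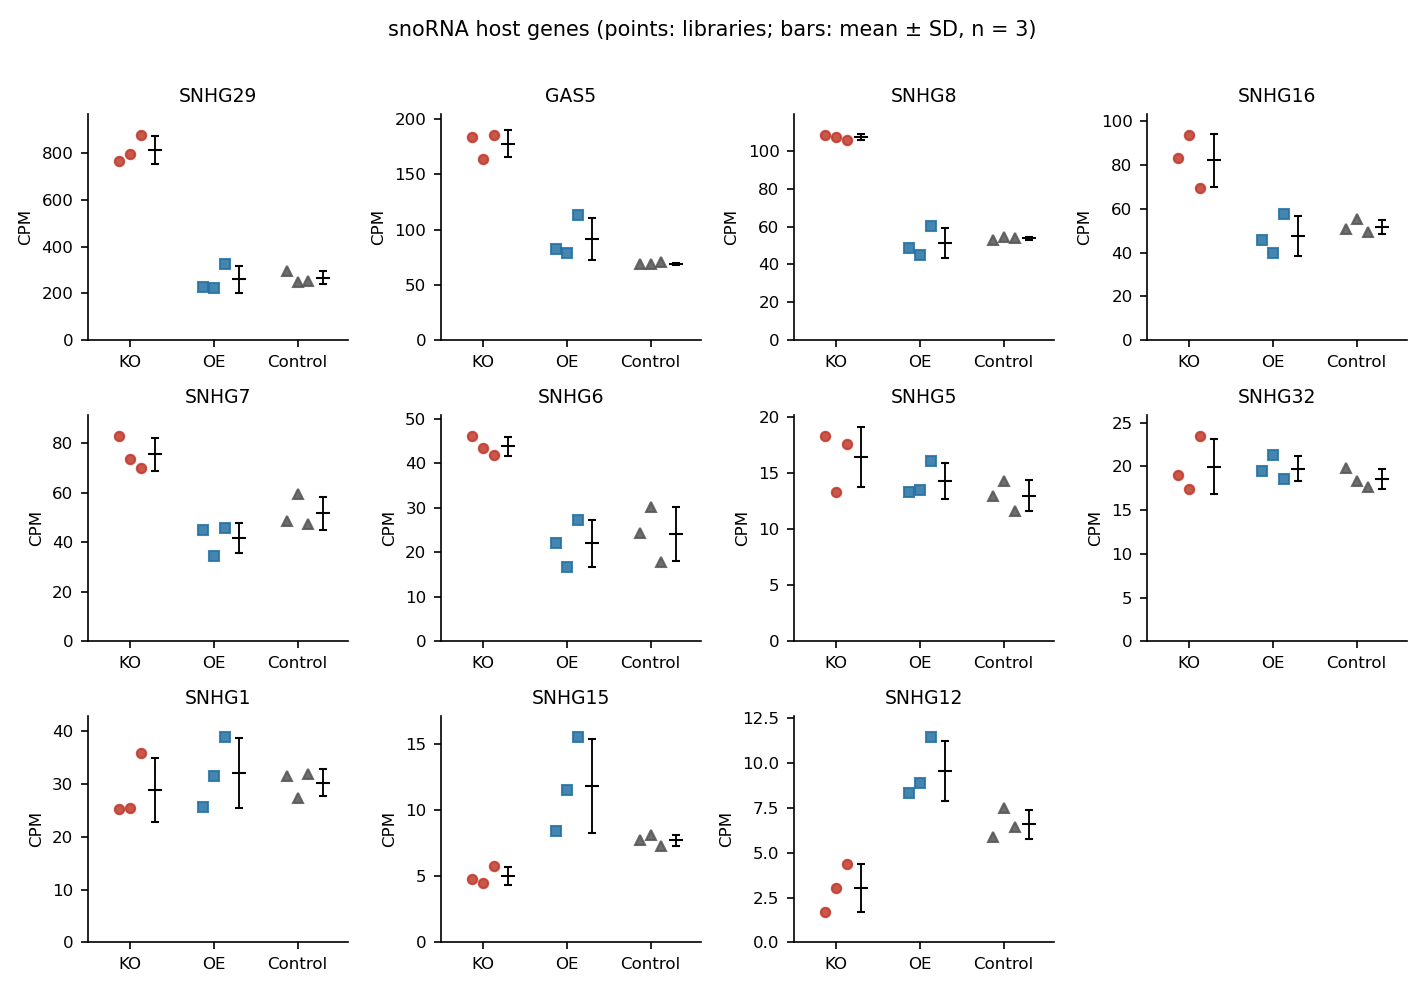
CPM of the 11 snoRNA host genes in each KO, OE and Control library (points), with the mean ± SD (n = 3) beside them and every axis starting at 0. SNHG29, GAS5, SNHG8, SNHG16, SNHG7 and SNHG6 are highest in KO, SNHG5, SNHG32 and SNHG1 overlap between groups, and SNHG15 and SNHG12 are lowest in KO.

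In OE against Control cells 2 of the 38 tested members were higher, 1 was lower and 35 did not pass, where 9.28% of all tested genes were higher and 9.34% lower, 18.6% in all. The median log2 fold change of the members was -0.04. With the trend removed 3 members were higher and 2 lower, against 21.2% of all genes called in either direction. GAS5 averaged 91.8 ± 19.0 CPM in OE and 69.2 ± 0.975 CPM in Control cells, a log2 fold change of 0.41 ± 0.11 (adjusted p = 0.00964), and all OE libraries lay above all Control libraries. EIF1 averaged 354 ± 19.5 CPM in OE and 288 ± 15.7 CPM in Control cells (0.30 ± 0.08, adjusted p = 0.00729), also without overlap. EIF3K averaged 148 ± 23.8 CPM in OE and 183 ± 9.30 CPM in Control cells (-0.30 ± 0.10, adjusted p = 0.028), with overlapping libraries.

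Each of these calls was lost in at least 1 fit that left out a library. Such fits have fewer libraries, and the number of all genes called also fell, from 2493 to between 1729 and 2466. Without OE replicate 3 the GAS5 value was 0.23 (adjusted p = 0.0754), and without Control replicate 3 the EIF1 value was 0.25 (adjusted p = 0.0662). EIF3K lost its call without Control replicate 1 (adjusted p = 0.0724), Control replicate 3 (0.125), OE replicate 1 (0.126) or OE replicate 2 (0.141), and was -0.44 (adjusted p = 0.000283) without OE replicate 3. Without that same library TPT1 was lower in OE than in Control cells (-0.27, adjusted p = 0.0167), against -0.11 (adjusted p = 0.543) with it. SNHG12 and SNHG15 averaged 9.54 ± 1.68 and 11.8 ± 3.57 CPM in OE against 6.59 ± 0.809 and 7.72 ± 0.404 CPM in Control cells, without overlap of the libraries, but did not pass (0.54 ± 0.25, adjusted p = 0.151, and 0.63 ± 0.22, adjusted p = 0.0537). SNHG15 was the only tested member more than 1.5-fold from Control in OE cells. OE libraries lay above every Control library for 6 members and below every one for 6, where 17.2% and 17.6% of all genes did so.

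Set against OE cells, KO cells had 30 of 38 tested members higher, 4 lower and 4 that did not pass, with a median log2 fold change of 0.65. Of all tested genes 28.6% were higher and 29% lower, 57.6% in all. Removing the trend gave 30 members higher and 5 lower, and 53.1% of all genes were called. The KO libraries lay above every OE library for 29 members and below every one for 4, where 30.5% and 31.1% of all genes did so. This comparison shares its KO libraries with KO against Control, so the values stand side by side as descriptions and not as a second test. TPT1 was 2.87-fold higher in KO than in OE cells (log2 fold change 1.52 ± 0.11, adjusted p = 3.58e-11), EEF1A1 2.65-fold (1.41 ± 0.07, adjusted p = 4.75e-13) and SNHG29 3.13-fold (1.64 ± 0.11, adjusted p = 3.03e-11). EIF3K was 2.46-fold higher in KO than in OE cells (1.29 ± 0.10, adjusted p = 9.66e-11).

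SNHG12 was 3.14-fold lower in KO than in OE cells (-1.70 ± 0.29, adjusted p = 2.33e-05) and SNHG15 2.35-fold lower (-1.26 ± 0.24, adjusted p = 9.77e-05). EIF4G1 was 2.04-fold lower (-1.03 ± 0.08, adjusted p = 1.45e-10). GAS5, which was also higher in OE than in Control cells, differed less between KO and OE cells (0.95 ± 0.11, adjusted p = 8.33e-08). EEF2 passed in this comparison (0.23 ± 0.08, adjusted p = 0.0137), as did PABPC1 (0.27 ± 0.08, adjusted p = 0.00675), EEF1D (0.27 ± 0.10, adjusted p = 0.0292) and EIF4A1 (-1.40 ± 0.56, adjusted p = 0.0373). Those 4 calls, and those of EIF3G (0.26) and HNRNPA1 (0.21), were each lost under at least 1 alternative; the highest adjusted p-values were 0.0845, 0.0532, 0.116, 0.203, 0.137 and 0.36 in that order. The other 28 of the 34 calls held under every alternative run.

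Fold changes of all genes in KO cells followed gene length. Exon lengths of the tested members ranged from 1247 bases (SNHG6) to 17059 bases (NAP1L1), with a median of 4992 bases, and the median of all tested genes was 5038.5 bases. In KO against Control cells the median log2 fold change was 0.52 in the shortest decile of genes, whose median length was 1178 bases. It was -0.45 in the longest, whose median length was 13563 bases. With the trend removed these medians were 0.15 and -0.02, so part of the trend remained in the shortest genes. Across the 13390 genes the rank correlation of fold change with length was -0.365, and across the 38 members it was 0.0708. With GC content the members' fold changes had a rank correlation of -0.376. The correlation with GC content over all genes was not computed. Genes share their libraries and are no independent replicates, so these are descriptions.

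**Figure D5:**
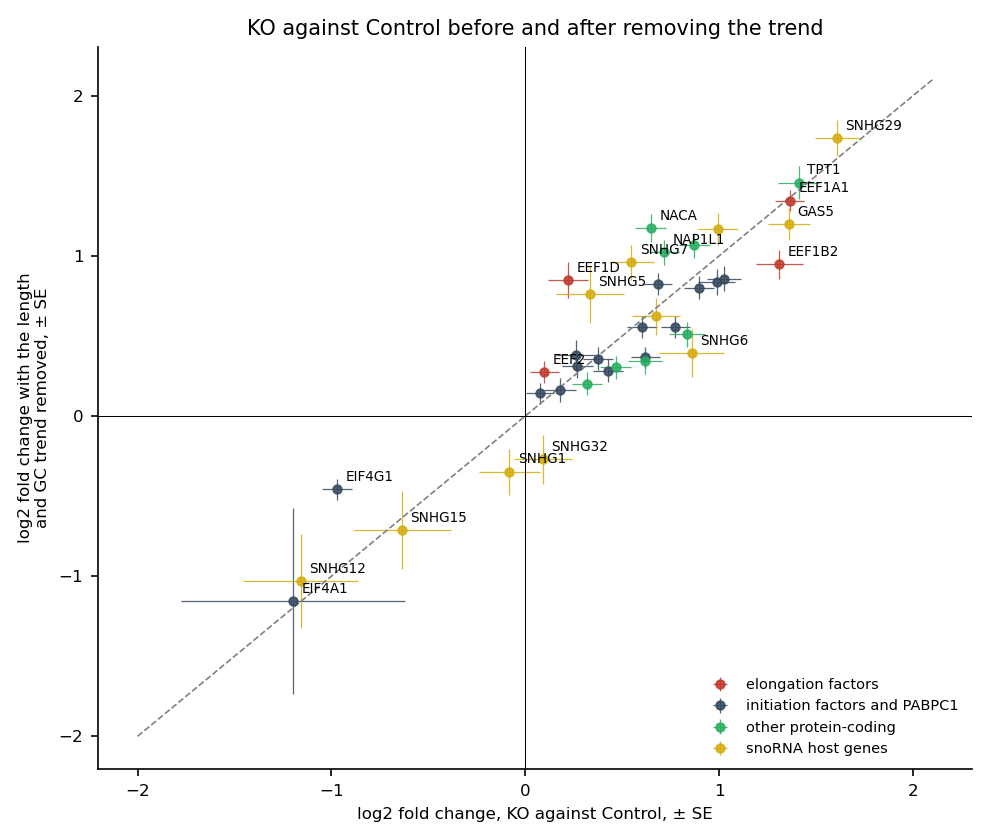
Log2 fold change of each tested member in KO against Control cells as counted (x axis) and with the length and GC trend of each library removed (y axis), ± SE, coloured by class, with a dashed line where both are equal. EIF4G1 and SNHG6 lie nearer to 0 on the y axis, NACA, EEF1D, SNHG5 and SNHG7 lie above the line, and SNHG1 and SNHG32 move down.

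Members with and without a tract at the start were also set side by side. Of the 24 members with a tract within 5 bases 18 were higher and 2 lower in KO against Control cells, with a median log2 fold change of 0.63. Of the 4 tested members with a RefSeq start and no tract, GAS5 and SNHG29 were higher and EIF4A1 and SNHG1 did not pass. Outside the members and the ribosomal protein genes, 688 tested genes had a tract exactly at a start, of which 34.3% were higher and 24.0% lower, with a median of 0.11. By the same wider definition as for the members, a tract within 5 bases, there were 2902 such genes, of which 28.6% were higher and 25.7% lower, with a median of 0.03. Of 7156 genes without a tract within 5 bases 25.4% were higher and 27.1% lower, with a median of -0.02. The difference between these groups of genes was not tested. A tract within 5 bases of a start is a match of letters, and no match says only that these letters are not within that distance.

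Other genes of the pathway were counted from lists. Of all tested genes 26% were higher and 25.9% lower in KO against Control cells, 51.9% in all. With the trend removed 24.8% were higher and 20.7% lower. The 6 tested mRNAs of another list with a TOP start were all higher in KO than in Control cells. The 4 with the smallest p-values were COX7C, a subunit of cytochrome c oxidase (1.14 ± 0.10, adjusted p = 1.78e-09), the mitochondrial carrier SLC25A6 (0.82 ± 0.08, adjusted p = 7.07e-09), the prefoldin subunit PFDN5 (1.41 ± 0.13, adjusted p = 1.05e-08) and FAU, which encodes a ribosomal protein fused to a ubiquitin-like protein (1.08 ± 0.11, adjusted p = 3.99e-08). Their median log2 fold change was 0.95, and 0.70 with the trend removed. Of 30 other initiation factors 16 were higher, 6 lower and 8 not past the test, with a median of 0.28; with the trend removed 12 were higher and 6 lower, with a median of 0.11. Of 12 tested genes of elongation and termination 4 were higher and 2 lower, 50% called and near the share over all tested genes. One of the lower ones was EEF2K, the kinase that inhibits EEF2 (-0.69 ± 0.11, adjusted p = 1.32e-05; -0.39 with the trend removed).

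Among 20 genes of the mTORC1 pathway and regulators of TOP mRNAs 5 were higher, 8 lower and 7 not past the test in KO against Control cells. That was 65% called, against 51.9% of all tested genes, and the median log2 fold change was 0.04. With the trend removed 7 were higher and 5 lower. LARP1 averaged 172 CPM in KO, 382 CPM in OE and 345 CPM in Control cells, a log2 fold change in KO against Control cells of -1.01 ± 0.09 (adjusted p = 5.40e-09; -0.62 with the trend removed). MTOR, the kinase of the complex, differed by -1.02 ± 0.10 (adjusted p = 1.36e-08; -0.48), and RPTOR, which recruits its substrates, by -0.94 ± 0.11 (adjusted p = 2.29e-07; -0.27). TSC2, an inhibitor of the pathway, was lower as counted (-0.59 ± 0.09, adjusted p = 1.02e-05) and higher with the trend removed (0.39, adjusted p = 0.00063), so its direction depends on that choice. These are transcript amounts and say nothing of kinase activity.

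Of 17 other tested snoRNA host genes 6 were higher, 3 lower and 8 not past the test in KO against Control cells. That was 52.9% called, near the 51.9% of all tested genes. SNHG18 (2.84-fold, adjusted p = 1.09e-08) and ZFAS1 (1.19 ± 0.13, adjusted p = 1.21e-07) were higher, and NCL, which encodes the nucleolar protein nucleolin (-0.73 ± 0.08, adjusted p = 5.62e-08), and SNHG14 (-1.55 ± 0.10, adjusted p = 3.84e-11) were lower. SNHG14 spans 122609 exon bases, and its value with the trend removed was -0.36 (adjusted p = 0.019). With the members counted in, 28 tested host genes had 12 higher and 5 lower, where 26% of all tested genes were higher and 25.9% lower. Of 9 proteins of snoRNA particles 4 were higher and 1 was lower, 55.6% called. With the trend removed 1 was higher and 3 were lower. The lower one as counted was NOLC1 (-0.70 ± 0.08, adjusted p = 7.39e-08). Of 15 factors of nonsense-mediated decay, the pathway that degrades several spliced host transcripts, 2 were higher, 7 lower and 6 not past the test. That was 60% called, with a median of -0.30. With the trend removed 3 were higher and 7 lower, with a median of -0.11. SMG1 (-1.24 ± 0.13, adjusted p = 4.30e-08; -0.65 with the trend removed), UPF1 (-0.87 ± 0.08, adjusted p = 7.89e-09; -0.30) and UPF2 (-0.74 ± 0.11, adjusted p = 6.55e-06; -0.87) were among the lower ones.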

How the data were processed

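RNA of 9 samples was extracted and poly-A selected before fragmentation and random-primed cDNA synthesis, and paired-end reads of 150 bases were made, per the labels' protocols. The authors deposited whole-number counts of reads per gene, made with featureCounts of the Subread package 1.5.2 on Ensembl release 101 (GRCh38), per the file headers. The submitters' processing notes also name FastQC, HISAT2 1.03, DESeq2 and a featureCounts version of 0.1.0. No option is set in that command for pairs, strand, multi-mapping or overlapping genes, so overlapping, antisense and near-identical genes are uncertain. Columns of other samples numbered 0.

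Genes were filtered with filterByExpr (minimum count 10), scaled by TMM and fitted over all 9 libraries with group as the only term in edgeR 4.0.16 (R 4.3.3, limma 3.58.1); contrasts were tested two-sided with Benjamini-Hochberg adjustment over 13390 genes and a threshold of 0.05. The common biological coefficient of variation was 10.2%. A per-library loess surface (span 0.3) of log2 CPM over log2 exon length and GC content (GENCODE release 29, 99.6% of genes) served as an offset for trend-removed values. Shares were compared with exact permutation tests (SciPy 1.17.1). The script was tested on simulated data. Alternatives were DESeq2 1.42.0 (Wald test and size factors), other filters, limma-voom, fits of 2 groups, the replicate number as a block, the offset, and each library left out; a fit and a share without EEF1A1 were chosen after seeing the data. Replicates differed by more than sampling noise (chi-square per degree of freedom 2.74 to 11.7), and limits at 0 counts cover counting error only. Starts came from the RefSeq promoter table of GRCh38.p14.

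All 39 members are named; of each further list, up to 4 genes by smallest p, and other eIF3 subunits to complete that complex, chosen after their values were seen. Members, lists and tests were chosen with earlier results of these data known.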

Additional observations from a re-analysis of the deposited data

How the results depend on the processing

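In KO against Control cells the counts of members called (30), higher (27) and lower (3) stayed within 1.5 times under every alternative run, and 28 of the 30 calls held under all of them, the exceptions being SNHG15 and EIF3G. Of 606 fits of a member under an alternative setting 581 kept direction and call, 10 lost the call and 15 gained it; none reversed a call, and 5 changed sign without a call on either side. Leaving out 1 library gave 28 to 31 members called, 26 to 28 higher and 2 to 4 lower, and 29 to 32 called in KO against OE cells. With the length and GC trend removed TSC2, no member, turned from lower to higher.

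In OE against Control cells none of the 3 calls held under all alternatives. With the trend removed 5 members passed, 2 of them lower; with the replicate block and the trend removed together 2 were lower. Leaving out 1 library gave 1 to 4 members called, 1 to 3 higher and 0 to 3 lower. The cause was not tested.

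Without EEF1A1 the share of the members exceeded the other groups by 0.525 percentage points in KO against Control cells and 0.558 in KO against OE cells, in place of 1.90 and 1.96, since EEF1A1 holds most of the difference.

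The replicate numbers of the titles did not pair the libraries: correlations of same-numbered libraries lay between -0.0772 and 0.066. The replicate block changed no member's call; 30 members passed in KO against Control cells, 27 higher and 3 lower, and 6907 of all genes against 6951 without it.

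Low counts limit EIF4A1, SNHG12, SNHG15, SNHG5 and SNHG32, and EEF1G cannot be measured from these counts. A p-value that missed the threshold does not show that groups were alike.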

Other observations

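Single genes of the other lists also differed between OE and Control cells, where 9.28% of all tested genes were higher and 9.34% lower, 18.6% in all. EIF4EBP1, which encodes a repressor of the cap-binding protein that mTORC1 phosphorylates, averaged 136 CPM in OE and 71.4 CPM in Control cells, at a log2 fold change of 0.93 ± 0.09 (adjusted p = 1.41e-07 by edgeR's quasi-likelihood test); in KO against Control cells it was 0.03 (adjusted p = 0.794). Of 20 genes of the mTORC1 list 1 was higher and 3 were lower in OE against Control cells, 20% in all and near the share over all genes. EIF5, which promotes GTP hydrolysis on eIF2, was lower in OE than in Control cells (-0.37 ± 0.07, adjusted p = 0.000826), the only lower gene among 30 other initiation factors, of which 6 were higher, 23.3% called in all. EEF1A2, the tissue-restricted relative of EEF1A1, averaged 5.28 CPM in OE and 10.2 CPM in Control cells (-0.97 ± 0.21, adjusted p = 0.00201), while EEF1A1 differed by -0.04 ± 0.07 (adjusted p = 0.76).

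Of 9 proteins of snoRNA particles 3 were higher and none lower in OE against Control cells, among them NOLC1 (0.36 ± 0.07, adjusted p = 0.00108) and DKC1, the pseudouridine synthase of box H/ACA particles (0.44 ± 0.09, adjusted p = 0.00155). Of 17 other host genes 4 were higher, including SNHG17 (0.53 ± 0.11, adjusted p = 0.00121), and 1 was lower, SNHG14 (-0.68 ± 0.10, adjusted p = 1.87e-05; -0.25, adjusted p = 0.136, with the length and GC trend removed).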
